A study of Mus musculus with 3 samples.

Results

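Cells that carried a reporter driven by the somatostatin gene but held no somatostatin mRNA in their sequenced RNA were set against cells with abundant somatostatin mRNA, at 3 stages of mouse neocortex (NCx) development. Cells were eligible when they had more than 700 detected genes, under 10% of unique molecular identifiers (UMIs, each standing for 1 captured mRNA molecule) from mitochondrial genes, at least 2000 UMIs, at least 1 UMI of Lhx6, and 0 UMIs of Nos1 and Neurod6. Of 12324 cells in all, 7886 passed the first 3 limits and 6061 were eligible. Among these, 1486 cells had 0 Sst UMIs and are called Sst-silent, and 2060 cells had at least 10 Sst UMIs and are called Sst-high. The remaining 2515 eligible cells had 1 to 9 Sst UMIs and lay between the sides. The sides thus held 3546 cells, chosen by a measured value, Sst itself, so the absence of Sst on one side and its abundance on the other are the rule and no finding.

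The libraries came from dissociated neocortex of SstCre/+;RCEfl/+ mice (strain label Sst-Cre; RCEloxP) at embryonic day 16.5 (E16.5), postnatal day 1 (P1), and postnatal day 5 (P5), with no treatment and no other genotype. GFP-positive, DAPI-negative cells were sorted by flow cytometry and captured on a droplet platform that counts mRNA from its 3' end, giving 1 library per stage from pools of 6 (E16.5) or 3 animals (P1, P5). Cre came from the Sst gene, and the reporter stays on after recombination, so that GFP marks a cell that once drove Cre and not one that holds Sst mRNA at the time of sorting. Stage, library, animal pool, and day of preparation cannot be told apart.

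Somatostatin is a neuropeptide made by a large class of cortical GABAergic interneurons that arise in the medial ganglionic eminence (MGE) and keep the transcription factor LHX6 throughout life. Within this class, Martinotti cells send an axon to layer 1, non-Martinotti cells arborize in the middle layers, and a rare group of long-range projecting (LRP) neurons expresses NOS1 and neuropeptide Y. Transcription of Sst is a textbook case of control by cyclic AMP, through a response element in its promoter that binds CREB, and its peptide is stored in dense core vesicles.

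The 8-base cAMP response element TGACGTCA reads the same on both strands, and it is shown in capitals within the reference sequence of the rule gene and of the only genes, among those at least 2-fold different between the sides in every library and present in the promoter table, that held it in the bases before their start. All 3 stretches are 5' to 3' on the strand of the gene, from the RefSeq promoter table (GRCm38.p6).
Sst (chr16:23890874-23890903, minus strand): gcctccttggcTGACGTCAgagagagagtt
Scg2 (chr1:79440076-79440105, minus strand): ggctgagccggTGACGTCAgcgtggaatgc
Ptpru (chr4:131838301-131838330, minus strand): gcccgggggccTGACGTCAgcgccccgctc
The element began 48 bases before the RefSeq start of Sst, 68 bases before that of Scg2, which encodes the granin secretogranin II of dense core vesicles, and 41 bases before that of Ptpru, a receptor tyrosine phosphatase.

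The Sst-silent side held 698 (E16.5), 352 (P1), and 436 cells (P5), which were 22.6% (95% Clopper-Pearson interval 21.2 to 24.1), 27.0% (24.6 to 29.5), and 26.1% (24 to 28.3) of the eligible cells. The Sst-high side held 1281, 376, and 403 cells, or 41.5%, 28.8%, and 24.1%. Within the Sst-high side the median was 29 (E16.5), 21 (P1), and 17 (P5) Sst UMIs per cell, and the highest cells had 359, 114, and 149. Intervals here and throughout cover counting error only. At the limits of the rule, 329, 198, and 189 cells had a single Sst UMI and stayed outside the silent side, 55, 33, and 37 cells had 9 and stayed outside the high side, and 47, 26, and 40 cells had 10 and were inside it.

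Cells of the silent side held fewer UMIs each, which by itself makes 0 UMIs of any gene more likely. Why they held fewer was not tested. Their median was 5193 UMIs against 7055 at E16.5, 3588 against 7304 at P1, and 3739 against 6646 at P5. The share of Sst-silent cells was 44.4%, 40.8%, and 50.0% among eligible cells of 2000 to under 3000 UMIs, and 2.36%, 3.00%, and 1.85% among those of 9000 UMIs or more. Between 4000 and 6000 UMIs the silent share still was 27.6%, 29.4%, and 24.7%, so silent cells were not restricted to the shallowest ones. When every eligible cell was thinned to 2000 UMIs, 34.6%, 39.3%, and 40.8% had 0 Sst UMIs, and 33.2%, 21.5%, and 17.8% had at least 5. Median mitochondrial shares were 3.98% on the silent and 3.96% on the high side at E16.5, 6.42% and 6.26% at P1, and 5.01% and 3.26% at P5.

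**Figure D1:**
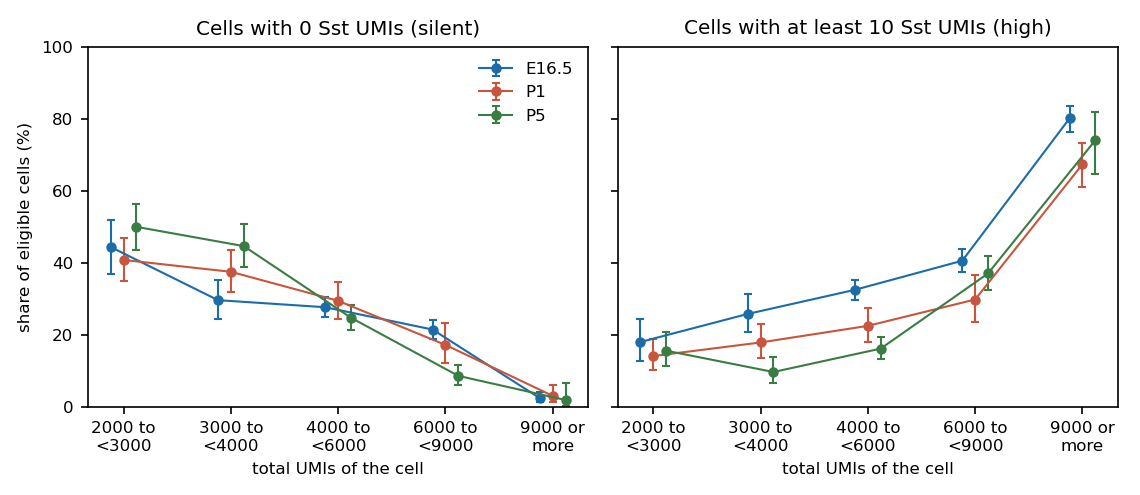
Share of eligible cells (%, vertical axis) that were Sst-silent (left) or Sst-high (right) in 5 bands of total UMIs per cell (horizontal axis), with 1 line per library and bars for 95% Clopper-Pearson intervals. The silent share is 44.4%, 40.8%, and 50.0% in the shallowest band and 2.36%, 3.00%, and 1.85% in the deepest, and the high share is 80.2%, 67.4%, and 74.1% in the deepest.

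Free RNA in the droplets could also give Sst UMIs to cells that do not express the gene. Among excitatory cells, taken as those with UMIs of Neurod6 and Neurod2 and none of Lhx6, 14 of 35 had at least 1 Sst UMI at E16.5 (40.0%, interval 23.9 to 57.9, median 11905 UMIs), 4 of 25 at P1 (16%, 4.54 to 36.1, median 6227 UMIs), and 0 of 13 at P5 (up to 24.7%, median 3974 UMIs). At least 10 Sst UMIs occurred in 2 of these excitatory cells at E16.5 and in 0 at P1 and P5. The eligible cells stood at 77.4%, 73.0%, and 73.9% with at least 1 Sst UMI, at median depths of 5942, 4468, and 5092 UMIs. The part of free RNA in the classes of 1 to 9 Sst UMIs was not tested. The libraries shared 3 (E16.5 and P1), 1 (E16.5 and P5), and 6 (P1 and P5) cell barcodes, of which 0 lay on the sides.

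Both sides carried the markers of MGE-derived GABAergic neurons. Lhx6 (chr2:36081953-36105408 in GRCm38, minus strand) was required of every cell and is no finding. Its level in CPM (UMI counts of the summed cells of a side, scaled to a total of 1e6) was 528 on the silent and 441 on the high side at E16.5, 915 and 770 at P1, and 585 and 504 at P5. Gad1, which encodes a GABA-synthesizing enzyme, stood at 218 and 319 CPM, 250 and 327 CPM, and 150 and 153 CPM. Slc32a1, the vesicular GABA transporter, was lower on the silent side throughout, at 235 and 332 CPM, 157 and 276 CPM, and 347 and 520 CPM, or log2 ratios of -0.50, -0.81, and -0.58. Gad2, the other GABA-synthesizing enzyme, had ratios of 0.08, -0.09, and -0.91. Of 11 measured genes of GABAergic identity, 2 were higher and 4 were lower in all 3 libraries, against 24.3% and 21.4% of all genes.

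Most defining markers of other cell types were near 0 on both sides. Vip, Isl1, and Cldn5 had 0 UMIs, and Neurod2, Slc17a7, Slc1a3, Olig1, P2ry12, and Top2a stayed under 3 CPM. Meis2, taken here as a marker of neurons of the lateral ganglionic eminence (LGE), had 7.08 CPM on the silent and 0.846 CPM on the high side at E16.5, 10.6 and 0.323 CPM at P1, and 0.568 and 0 CPM at P5. The paper found a small Meis2 cluster in these libraries and discarded it. It assigned that cluster to interneurons of the caudal ganglionic eminence, labelled perhaps through transient Sst expression. Of the excitatory list, 3 of 16 genes passed the filter, with summed levels of 294, 293, and 215 CPM on the silent and 200, 231, and 161 CPM on the high side, most of it from Cux1, which interneurons also express. The glial, vascular, and immune list had 1 of 24 genes past the filter, Mbp, with 15.5 and 23.8 CPM, 19.1 and 25.8 CPM, and 39.8 and 28.9 CPM. The summed list stood at 29.1, 38.1, and 46.0 CPM on the silent and 40.9, 44.5, and 33.7 CPM on the high side. Of 7 measured genes of progenitors and cycling cells, 1 was higher and 1 was lower in all 3 libraries, and Mki67 stood between 4.52 and 7.08 CPM on every side. Pvalb, which marks mature basket cells, did not exceed 2.27 CPM at these ages.

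Across 11164 genes with at least 10 UMIs over both sides of every library, log2 ratios of CPM, silent over high, were taken with 1 CPM added to each level. The same direction in all 3 libraries was found for 2710 genes that were higher in Sst-silent cells (24.3% of genes) and for 2388 that were lower (21.4%). At least 2-fold higher in every library were 48 genes (0.430%), and at least 2-fold lower were 82 (0.735%). Within single libraries the counts past 2-fold were 152 higher and 575 lower at E16.5, 293 and 906 at P1, and 389 and 364 at P5. The median ratio over all genes was 0.02, -0.01, and 0.03 on the log2 scale. Scaling by trimmed means (TMM) moved the E16.5 median to -0.09, which turns ratios near 0 such as that of Gad2 at E16.5, and brought the higher genes from 53.2% to 41.0% of those with 1 direction and from 36.9% to 28.5% of those past 2-fold. There is no replicate of a stage, the sides were set on a readout, and an exact two-sided test of 3 pairs cannot go below p = 0.25, so no test was made and the ratios are a description of these libraries. Across genes, which are no independent replicates, the ratios of E16.5 and P1 had a Pearson correlation of 0.54, those of P1 and P5 of 0.46, and those of E16.5 and P5 of 0.27.

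The genes that were highest in Sst-silent cells were Tac1, Id2, Gucy1a1, Adamts17, Cck, Id4, Sh3rf3, Mef2c, Nxph2, Zfp536, Srrm4, and Sox4. Among those that were lowest were Crhbp, Npy, Vgf, Ntng1, Cort, Nr2f2, Trhde, Ildr2, Rab27b, Mgat4c, and Pcp4. In the plot of their ratios every point of these 23 genes lay past 2-fold, in the same direction in each library. As the genes were chosen by these same ratios, the choice largely fixed this, and it is no finding.

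**Figure D2:**
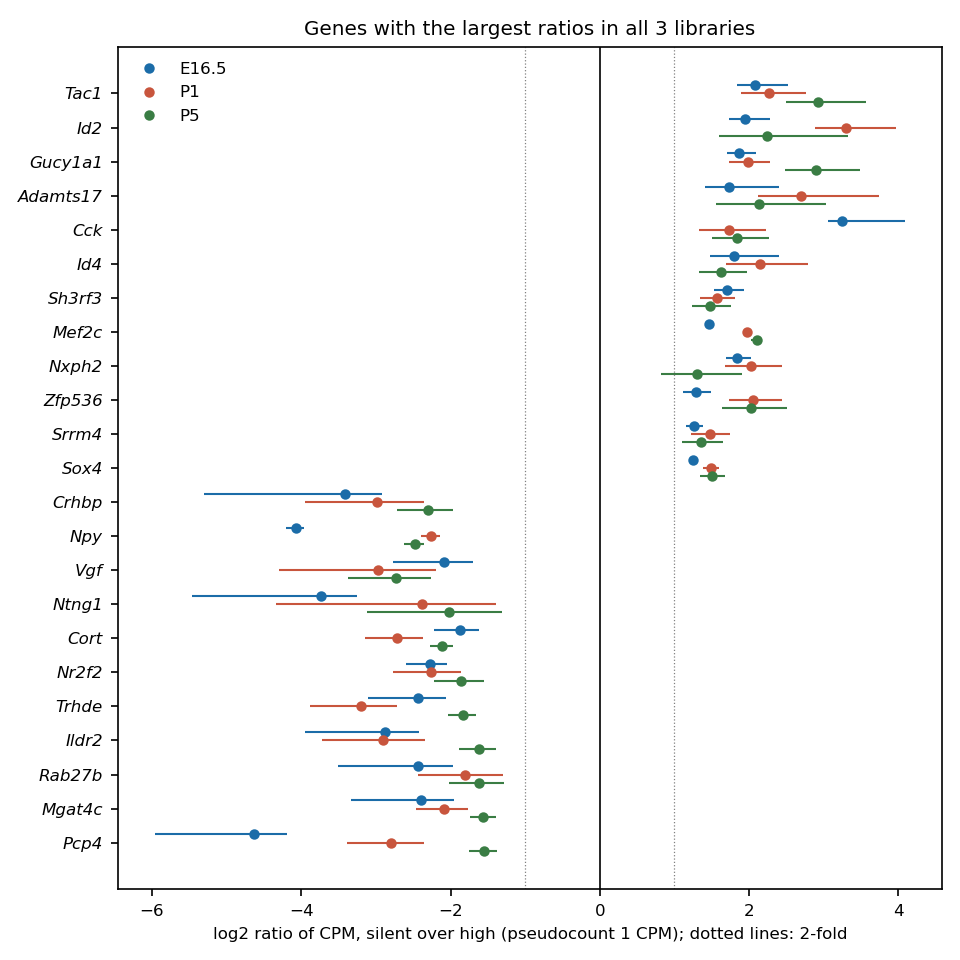
Log2 ratio of CPM, silent over high with 1 CPM added (horizontal axis), of the 12 genes highest and 11 of the genes lowest in Sst-silent cells, 1 point per library, with bars for 95% intervals of the ratio without the added CPM, which cover counting error only. Points run from 1.24 (Sox4 at E16.5) to 3.304 (Id2 at P1) on the right, and from -1.55 (Pcp4 at P5) to -4.63 (Pcp4 at E16.5) on the left.

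Several transcription factors were higher in Sst-silent cells. Mef2c encodes an activity-regulated factor known in parvalbumin interneuron precursors. Mef2c (chr13:83504034-83667080, plus strand) had 1726 CPM in Sst-silent and 626 CPM in Sst-high cells at E16.5, 4160 and 1056 CPM at P1, and 2937 and 684 CPM at P5. The log2 ratios were 1.46 (interval 1.41 to 1.51), 1.98 (1.92 to 2.04), and 2.10 (2.03 to 2.18). Zeb2, a zinc finger factor that directs MGE-derived cells towards cortex, had 1670 and 548 CPM, 2342 and 750 CPM, and 1085 and 517 CPM. Sox4 (chr13:28948919-28953713, minus strand), a SOXC factor of newly born neurons, had 3181 and 1343 CPM, 1178 and 419 CPM, and 459 and 161 CPM. The levels of Sox4 thus were lower at later stages on both sides, while the silent cells held more of it at each stage, with ratios of 1.24, 1.49, and 1.51.

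The silent side also held more RNA of the helix-loop-helix inhibitors Id2 and Id4. Id2 stood at 74.3 and 18.5 CPM, 124 and 11.6 CPM, and 31.3 and 5.86 CPM, and Id4 had log2 ratios of 1.79, 2.15, and 1.63. Nfib, a nuclear factor I gene, showed a gap that differed in size between the libraries, with 180 and 83.0 CPM at E16.5, 203 and 16.1 CPM at P1, and 80.1 and 1.46 CPM at P5. The ratio of Nfib was 1.11 (interval 0.97 to 1.26) at E16.5 and 3.58 (3.22 to 4.12) at P1, and at P5 it was 5.04 (4.39 to 7.67) with 4 UMIs on the high side. Nfix, of the same family, had 2.45 and 0.470 CPM, 59.3 and 0.968 CPM, and 15.3 and 0.366 CPM, with 1 UMI on the P5 high side and an interval of 2.79 to 10.75 there. Zfp536, a zinc finger repressor of neuronal differentiation, stood at 123 and 49.9 CPM, 140 and 32.9 CPM, and 96.6 and 23.1 CPM. Of 17 measured transcription factors of the MGE lineage, 10 were higher in Sst-silent cells in every library, 4 of them at least 2-fold (Zeb2, Nfib, Nfix, and Zfp536), and 2 were lower (Satb1 and Tshz2), with medians of 0.47, 0.62, and 1.07. Of all genes, 24.3% were higher and 21.4% lower in this way, and 0.430% were at least 2-fold higher.

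Maf, a leucine zipper factor of MGE interneurons, was higher on the silent side as well. It had 897 and 505 CPM at E16.5, 2569 and 1073 CPM at P1, and 786 and 349 CPM at P5. Erbb4 (chr1:68032186-69108059, minus strand), the neuregulin receptor of fast-spiking interneurons, had 414 and 189 CPM, 533 and 188 CPM, and 333 and 111 CPM, and ratios of 1.13, 1.496, and 1.58.

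Tac1 and Cck were the neuropeptide genes that were higher in Sst-silent cells. Tac1 (chr6:7554879-7565834, plus strand), which encodes the tachykinin precursor of substance P, stood at 50.6 CPM on the silent and 11.2 CPM on the high side at E16.5, 105 and 21.0 CPM at P1, and 106 and 13.2 CPM at P5. Its ratios were 2.08 (interval 1.84 to 2.52), 2.26 (1.89 to 2.76), and 2.92 (2.49 to 3.57). Cck, the cholecystokinin precursor, had 45.2 and 3.85 CPM, 77.0 and 22.6 CPM, and 111 and 30.4 CPM, or ratios of 3.25, 1.73, and 1.84. Gucy1a1, a subunit of the nitric oxide receptor guanylyl cyclase, had ratios of 1.87, 1.99, and 2.89, and Nxph2, a neurexin ligand, of 1.84, 2.02, and 1.31. Sh3rf3 had 115 and 34.6 CPM, 242 and 81.0 CPM, and 195 and 69.2 CPM. Srrm4, the splicing regulator of neuronal microexons, had 324 and 134 CPM, 195 and 69.7 CPM, and 169 and 65.5 CPM.

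The neuropeptide list was otherwise lower in Sst-silent cells. Of its 7 measured genes, 5 were lower in all 3 libraries and 4 of these at least 2-fold (Cort, Npy, Penk, and Pnoc), against 21.4% and 0.735% of all genes. Npy (chr6:49822710-49829507, plus strand), which encodes neuropeptide Y, had 166 CPM on the silent and 2809 CPM on the high side at E16.5, 376 and 1814 CPM at P1, and 277 and 1549 CPM at P5. The ratios of Npy were -4.08 (interval -4.20 to -3.97), -2.27 (-2.40 to -2.14), and -2.48 (-2.62 to -2.35). Cort (chr4:149125034-149126763, minus strand), which encodes cortistatin, a peptide closely related to somatostatin, had 27.8 and 104 CPM, 42.4 and 285 CPM, and 219 and 949 CPM. Its level was higher at each later stage on both sides, and the silent side lay below the high side at every stage, by ratios of -1.87, -2.72, and -2.11. Pnoc, the prepronociceptin gene, had ratios of -2.97, -1.51, and -1.37. Penk, the proenkephalin gene, had 0 UMIs on the silent side at P1, where 3 UMIs would be 2.12 CPM, against 16.5 CPM on the high side, and its ratios were -1.15 at E16.5 and -2.36 at P5.

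Genes that process, pack, and release peptides were more often lower than higher in Sst-silent cells. Of 20 measured genes of peptide processing and dense core vesicles, 13 were lower in all 3 libraries and 3 of them at least 2-fold (Scg2, Vgf, and Resp18), against 21.4% and 0.735% of all genes, with medians of -0.33, -0.55, and -0.87. Vgf, a secreted neuronal granin, had 8.99 and 41.5 CPM, 6.36 and 56.5 CPM, and 17.6 and 123 CPM, or ratios of -2.09, -2.97, and -2.73. Scg2, whose promoter stretch is printed beside that of Sst, had 2.99 and 16.4 CPM, 24.01 and 76.5 CPM, and 34.7 and 97.4 CPM, or ratios of -2.13, -1.63, and -1.46. The one member that was higher in every library was Furin, a constitutive proprotein convertase, with ratios of 0.75, 1.43, and 1.44. Rab27b, a small GTPase of vesicle exocytosis, had ratios of -2.44, -1.80, and -1.62. Crhbp, which encodes the binding protein of corticotropin-releasing hormone, had 1.91 and 30.0 CPM, 10.6 and 90.7 CPM, and 39.8 and 200 CPM, or ratios of -3.41, -2.98, and -2.30.

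The cAMP-CREB pathway gave no common direction. Of 28 measured genes, 6 were higher and 9 were lower in all 3 libraries (24.3% and 21.4% of all genes), 0 of them 2-fold, and the medians were 0.01, -0.29, and 0.02. Akap5, an anchoring protein of protein kinase A, was the most strongly lower, with 59.6 and 178 CPM, 71.3 and 214 CPM, and 131 and 261 CPM. Crtc1, a coactivator of CREB, was higher, with ratios of 0.41, 0.42, and 0.80. Of 9 measured immediate early genes, 3 were lower and 1 was higher in every library (21.4% and 24.3% of all genes). Their medians were -0.45, -1.48, and -0.18. With both sides weighted to the same depth, as described below, 5 of the 9 were lower and 0 higher (19.7% and 18.6% of all genes). Fos had ratios of -0.94, -1.48, and -0.92 and Jund of -0.82, -0.75, and -0.60. The element TGACGTCA occurred in the 250 bases before the start of 289 of 8644 compared genes that matched the promoter table (3.34%), of 2 of 64 matched genes that were 2-fold lower (3.13%), and of 0 of 37 that were 2-fold higher. Over all 27025 genes of the promoter table, 478 held the element (1.77%). Ptpru, the other 2-fold lower gene with the element, had ratios of -3.38 at E16.5 and -2.42 at P1. Of the somatostatin receptors 1 of 5 was measured, Sstr1, with ratios of -2.70, -1.69, and -0.41.

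Genes that the study had selected as Martinotti and non-Martinotti markers separated in opposite directions. These lists were chosen by the study on the same libraries, so their counts are not independent evidence. Of 37 measured non-Martinotti genes, 24 were higher in Sst-silent cells in all 3 libraries (24.3% of all genes were) and 12 of them at least 2-fold, 3 were lower, Cntnap2 and Kcnip4 among them, and the medians were 0.79, 1.22, and 1.01. The 12 were Erbb4, Id2, Kcnip2, Mef2c, Nfib, Nxph2, Sh3rf3, Sox4, Srrm4, Tac1, Zeb2, and Zfp536. Of 35 measured Martinotti genes, 21 were lower (21.4% of all genes) and 7 of them at least 2-fold, 2 were higher (Dpp10 and Kirrel3), and the medians were -0.85, -0.94, and -0.43. The list of the basket and chandelier lineage was drawn up from textbook knowledge and shared Erbb4, Kcnip2, Mef2c, and Tac1 with the non-Martinotti list. It had 8 of 16 genes higher, 6 of them 2-fold, and 2 lower, 1 of them 2-fold, with medians of 0.41, 0.65, and 0.62. The shared genes were among the 6. Of all genes, 24.3% were higher and 21.4% lower, and 0.430% and 0.735% were at least 2-fold higher and lower.

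Nr2f2 was among the Martinotti genes that were lower in Sst-silent cells. Nr2f2 (chr7:70351944-70366735, minus strand), the nuclear receptor COUP-TFII, had 32.4 CPM in silent and 161 CPM in high cells at E16.5, 31.8 and 156 CPM at P1, and 49.5 and 182 CPM at P5, or ratios of -2.28 (interval -2.59 to -2.04), -2.26 (-2.77 to -1.86), and -1.86 (-2.22 to -1.55). Reln, the secreted glycoprotein reelin, had ratios of -0.76, -1.52, and -1.09. Grin3a, an NMDA receptor subunit that marks somatostatin interneurons early, had 23.4 and 207 CPM, 227 and 1071 CPM, and 837 and 1730 CPM. The gap of Grin3a was narrower at the later stages, with ratios of -3.09, -2.23, and -1.05, as its level in silent cells was higher at each later stage. Trhde, which encodes an enzyme that degrades thyrotropin-releasing hormone, had 9.26 and 54.7 CPM, 19.1 and 184 CPM, and 148 and 533 CPM. Mgat4c, a glycosyltransferase gene, had ratios of -2.40, -2.09, and -1.56.

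Cells with Nos1 UMIs had been left out of both sides, but 0 Nos1 UMIs in a cell do not exclude that it is an LRP neuron. More LRP genes of the study were lower than higher in silent cells. Of 109 measured genes, again chosen by the study on these libraries, 58 were lower and 8 higher in every library, against 21.4% and 24.3% of all genes, 11 and 2 of them 2-fold, with medians of -0.94, -0.72, and -0.21. Besides Npy and Crhbp the 11 lower genes included Ntng1, an axonal netrin G, with 2.18 and 41.4 CPM, 3.53 and 22.6 CPM, and 7.39 and 32.9 CPM. They also included Pcp4, a calmodulin regulator, with 3.27 and 105 CPM, 24.7 and 178 CPM, and 160 and 471 CPM. Chodl, the defining LRP marker besides Nos1, had 0 UMIs on the E16.5 silent side against 13.7 CPM on the high side, 1.41 and 20.6 CPM at P1, and 4.55 and 8.78 CPM at P5. By antibody staining at P5 and P21, the paper found Pou3f2 protein in LRP neurons, not in SST+ interneurons. For its RNA the paper described high levels in developing LRP neurons and relatively limited ones in SST+ interneurons. In Sst-high cells with 0 Mef2c UMIs, Pou3f2 had 72.4, 395, and 35.3 CPM, against 5.39, 45.2, and 6.94 CPM in other Sst-high cells. Npy had 5736, 7986, and 4011 CPM there, against 2378, 1484, and 1265 CPM. Crhbp was higher there at P1 only (191 against 85.3 CPM). With cells holding Chodl or Pou3f2 UMIs also left out, 80 of 10966 compared genes were 2-fold lower, against 82 of 11164. Only 71 genes were in both sets. How far remaining LRP cells set these gaps was not tested.

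Genes of immaturity had no common direction. Of 25 measured genes of migration and immaturity, 9 were higher and 6 were lower in all 3 libraries (24.3% and 21.4% of all genes), 1 of them 2-fold (Sox4), with medians of 0.13, -0.02, and 0.24. Epha3, an ephrin receptor, had ratios of 0.61, 1.00, and 1.04, while Dpysl3, a growth cone protein, had -0.45, -0.53, and -0.53. The developmental module of the study, a set of genes that changed together with maturation and was chosen on these libraries, had 112 of 156 measured genes lower and 2 higher (Grin2b and Thra), 12 of them 2-fold lower and 0 2-fold higher, against 21.4% of all genes lower and 0.735% 2-fold lower, with medians of -0.51, -0.76, and -0.27. Its 2-fold lower genes included Grin3a, Crhbp, and Cdkn1a, a cell cycle inhibitor with ratios of -2.04, -2.10, and -1.79. Of 12 stress genes, also of the study, 7 were lower and 1 was higher (21.4% and 24.3% of all genes), with Clu, the chaperone clusterin, at -0.72, -1.63, and -1.35.

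Among genes of excitability, more ion channel subunits were lower than higher in Sst-silent cells. Of 30 measured ion channel subunits, 13 were lower and 3 higher in all 3 libraries (21.4% and 24.3% of all genes), 0 of them 2-fold, with medians of -0.25, -0.41, and -0.18. Cacna2d3, a calcium channel auxiliary subunit, had 53.9 and 74.0 CPM, 56.5 and 162 CPM, and 47.7 and 145 CPM. Of 23 ionotropic receptor subunits for glutamate and GABA, 9 were lower and 6 higher (the same shares of all genes apply), 1 of them 2-fold lower (Grin3a), with medians of -0.11, -0.31, and 0.15. Gabra2 had ratios of -1.61, -1.83, and -0.54, whereas Gabrg3 had 1.48, 0.51, and 1.12. Of 9 measured genes of the caudal ganglionic eminence (CGE) list, 3 were higher and 3 lower against the same shares, and 2 of the extremes, Nr2f2 and Cck, are described above. The defining CGE markers Vip, Prox1, and Adarb2 stayed at or under 3.76 CPM. Htr3a, also a CGE marker, had 9.26 CPM on the silent and 9.86 CPM on the high side at E16.5, at most 1.41 CPM at P1, and 0 UMIs at P5. Of 4 measured striatal and LGE genes, 1 was higher (Tshz1) and 1 lower (Penk). The plot of list medians sets these values side by side, with the MGE lineage factors (1.07) above the non-Martinotti genes (1.01) at P5.

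**Figure D3:**
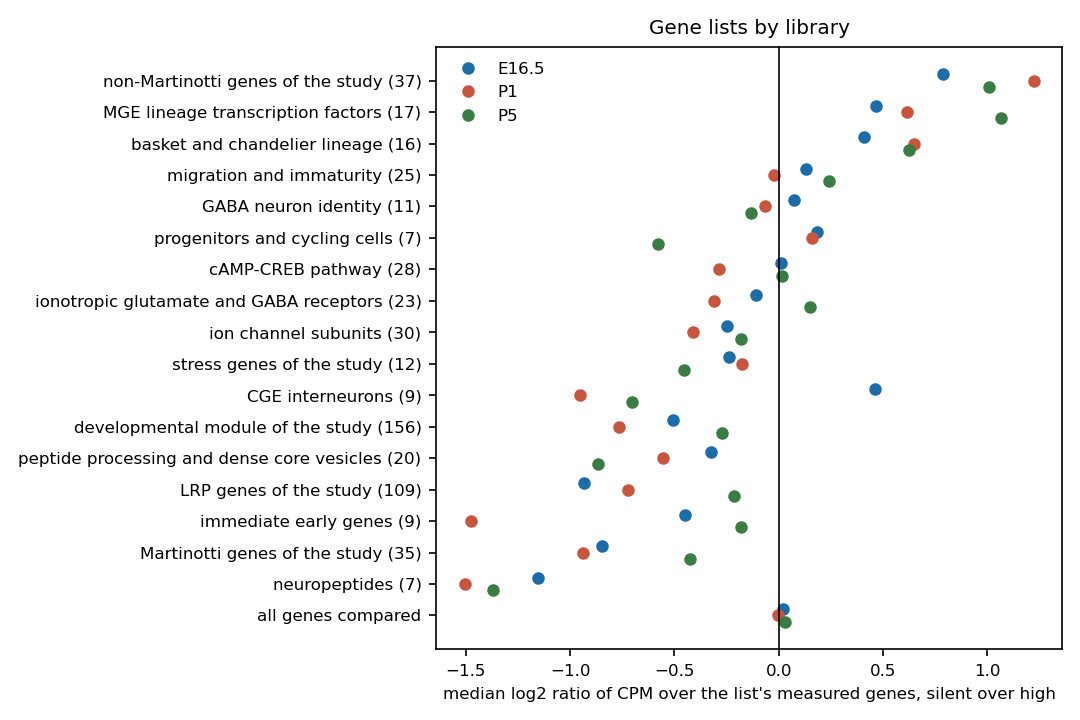
Median log2 ratio of CPM, silent over high (horizontal axis), over the measured genes of each list (number in brackets), 1 point per library, with the median of all 11164 genes at the bottom; 4 lists with fewer than 5 measured genes are left out. The non-Martinotti genes of the study lie at 0.79, 1.22, and 1.01, the neuropeptides at -1.15, -1.51, and -1.37, and all genes at 0.02, -0.01, and 0.03.

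Cells with 1 to 9 Sst UMIs, which the sides leave out, show whether levels were ordered with Sst. In eligible cells with 0, 1 to 2, 3 to 9, and at least 10 Sst UMIs, Mef2c had 1726, 1303, 930, and 626 CPM at E16.5. At P1 it had 4160, 3559, 1914, and 1056 CPM, and at P5 2937, 1331, 949, and 684 CPM. The level of Mef2c was lower in each class than in the one before it in all 3 libraries, as were those of Sox4, Erbb4, and Zeb2. Npy was ordered the other way, with 166, 333, 765, and 2809 CPM at E16.5, 376, 503, 1003, and 1814 CPM at P1, and 277, 440, 518, and 1549 CPM at P5. Nr2f2 was lowest in silent cells but highest in the class of 3 to 9, where it had 172, 256, and 191 CPM. Tac1 at P1 was lower in the class of 3 to 9 (12.6 CPM) than in Sst-high cells (21.0 CPM).

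Of the 48 genes that were 2-fold higher in silent cells, 38 (E16.5), 30 (P1), and 33 (P5) were ordered over all 4 classes. Of the 82 that were 2-fold lower, 42, 63, and 53 were ordered. The end classes fix part of this order, since the genes were chosen by their ratio. Against the cells with 1 to 9 Sst UMIs in place of the high side, only 4 genes were 2-fold higher in silent cells in all 3 libraries and 20 were 2-fold lower. Median log2 ratios over the high side were also taken for the class of 1 to 2. Over the 48 genes they were 1.08, 1.55, and 0.92, against 1.38, 1.74, and 1.60 for silent cells. Over the 82 genes they were -1.35, -1.49, and -0.63, against -1.72, -2.11, and -1.49. This class thus lay nearer to the silent cells than to the high side, except over the 82 genes at P5.

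**Figure D4:**
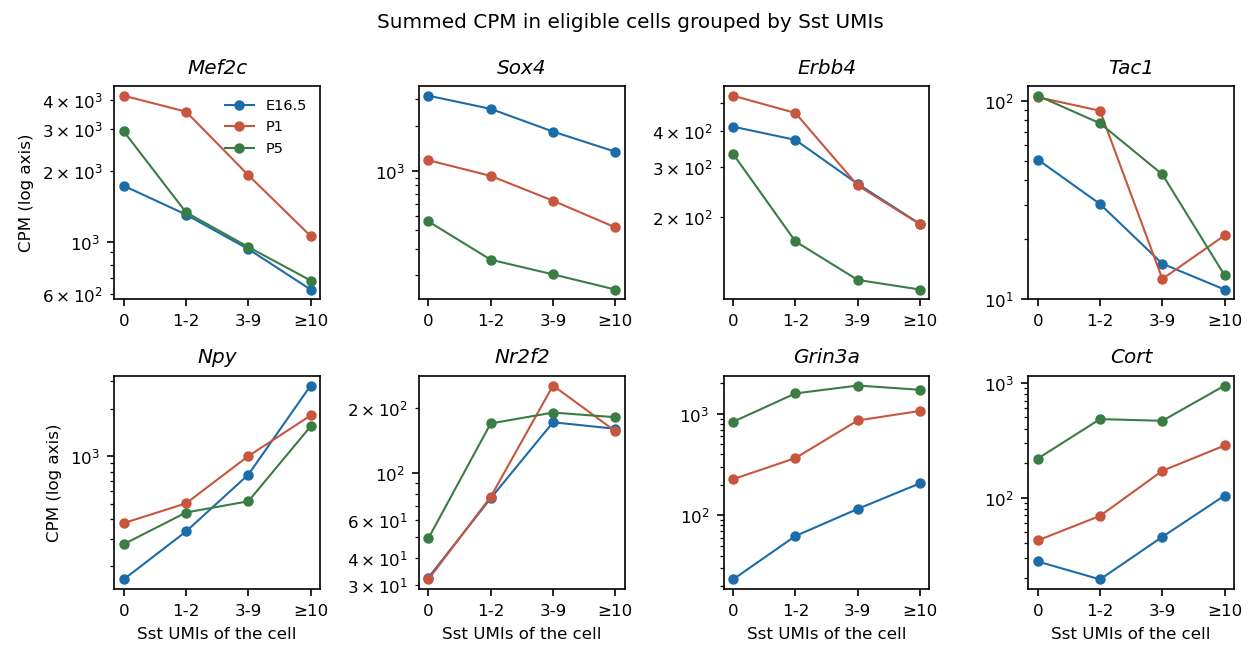
Summed CPM (vertical axes, logarithmic and different in each panel) of 8 genes in eligible cells with 0, 1 to 2, 3 to 9, and at least 10 Sst UMIs (horizontal axes), 1 line per library. Mef2c runs from 1726, 4160, and 2937 CPM in silent cells to 626, 1056, and 684 CPM in high cells, Npy from 166, 376, and 277 to 2809, 1814, and 1549 CPM, and Nr2f2 peaks in the class of 3 to 9.

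At the level of single cells, Mef2c was found in nearly all Sst-silent cells. With every cell thinned to 2000 UMIs, 91.0%, 98.0%, and 90.8% of silent cells had at least 1 Mef2c UMI, against 60.4%, 77.9%, and 61.0% of high cells (unthinned 97.7%, 99.4%, and 96.8% against 82.7%, 90.2%, and 86.4%). Excitatory cells, which are known to express Mef2c, stood at 54.3%, 88.0%, and 92.3%, so no share of Mef2c can be read against a background here. Erbb4 UMIs were found in 56.6%, 58.8%, and 39.2% of silent and 32.7%, 29.5%, and 14.9% of high cells after thinning (unthinned 81.8%, 74.4%, and 57.6% against 66.0%, 54.0%, and 35.2%), and in 8.57%, 4%, and 0% of excitatory cells. Tac1 was found in a minority even of silent cells, with 5.73%, 5.97%, and 10.3% after thinning against 1.56%, 1.60%, and 0.993% of high cells (unthinned 9.74%, 7.67%, and 14.4% against 2.97%, 1.86%, and 2.73%) and 2.86%, 0%, and 0% of excitatory cells. Id2 UMIs were found in 11.7%, 13.6%, and 7.34% of silent and 3.43%, 2.39%, and 1.74% of high cells after thinning (unthinned 19.9%, 19.0%, and 9.40% against 8.59%, 5.05%, and 2.48%), and in 65.7%, 52.0%, and 30.8% of excitatory cells.

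Shares of cells with the lower genes were set beside those of the same 35, 25, and 13 excitatory cells, whose few cells give wide intervals. Whether these cells express the genes themselves was not tested. Nr2f2 was found in 5.59%, 3.98%, and 3.90% of silent and 20.6%, 14.4%, and 20.8% of high cells after thinning (unthinned 11.03%, 5.97%, and 5.73% against 36.2%, 31.4%, and 37.0%). In excitatory cells Nr2f2 stood at 5.71% (interval 0.70 to 19.2), 0% (up to 13.7%), and 0% (up to 24.7%). The silent shares of Nr2f2 lay inside these wide intervals, and so did the high share at P5. Npy was found in 17.2%, 42.3%, and 31.7% of silent and 72.8%, 60.9%, and 48.6% of high cells (unthinned 26.8%, 60.2%, and 42.2% against 82.6%, 82.2%, and 63.5%). For Npy the excitatory cells stood at 8.57% (interval 1.80 to 23.1), 44% (24.4 to 65.1), and 15.4% (1.92 to 45.4). The silent shares of Npy also lay inside these intervals. Grin3a was found in 4.01%, 22.2%, and 51.6% of silent and 25.3%, 66.0%, and 81.1% of high cells (unthinned 8.88%, 31.3%, and 61.0% against 49.3%, 82.2%, and 90.8%), and in 5.71%, 20.0%, and 7.69% of excitatory cells. Of these shares in silent cells, only that of Grin3a at P5 lay outside the interval of the excitatory cells (0.195 to 36.0 there).

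Single cells were also placed by whether they held more UMIs of the non-Martinotti or of the Martinotti genes after thinning, a measure set up after the values had been seen and resting on lists the study chose on these libraries. Non-Martinotti UMIs were in the majority in 98.3% (interval 97.0 to 99.1), 97.7% (95.6 to 99.0), and 72.9% (68.5 to 77.1) of Sst-silent cells. The same held for 89.4% (87.6 to 91.0), 62.8% (57.7 to 67.7), and 20.8% (16.98 to 25.1) of Sst-high cells. Without Mef2c, an abundant member of the non-Martinotti list, the shares were 97.6%, 93.5%, and 65.1% of silent and 86.6%, 57.7%, and 17.6% of high cells. Both shares were lowest at P5, where they also lay furthest apart. The summed levels of the lists differed by stage, however. On the high side the Martinotti list stood at 3968, 8794, and 13164 CPM and the non-Martinotti list at 9541, 9638, and 6812 CPM. Shares of different stages thus carry these levels and do not place cells on a common scale.

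Because depth differed between the sides, the ratios were taken again with both sides weighted to the same numbers of cells in each of the 5 bands of UMIs. Of the 48 genes that were 2-fold higher, 47 kept their direction in all 3 libraries (all but B3gat1) and 22 stayed at least 2-fold. Of the 82 that were 2-fold lower, 77 kept it (all but Acyp2, Drc1, Igfbp5, Rasgrf1, and Rwdd2a) and 41 stayed at least 2-fold. Mef2c had ratios of 1.58, 2.00, and 2.08 at matched depth, Erbb4 of 0.82, 1.40, and 1.58, and Npy of -4.29, -3.73, and -3.58. Sox4, in contrast, had 0.61, 0.31, and 1.04, Gucy1a1 had 0.39 at P1, and Cort had -0.23 at E16.5.

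At matched depth, 18.6% of all genes were higher and 19.7% lower in all 3 libraries. At least 2-fold higher were 0.269%, and at least 2-fold lower 0.717%. The lists at matched depth had medians of 0.61, 0.80, and 0.75 for the non-Martinotti genes, with 25 of 37 higher, and of -0.91, -0.87, and -0.59 for the Martinotti genes, with 23 of 35 lower. The developmental module had 90 of 156 genes lower and 13 higher, and medians of -0.25, -0.47, and -0.33. The LRP genes had 70 of 109 lower and 1 higher. Of the neuropeptides 4 of 7 were lower, 2 of them 2-fold, with medians of -0.23, -2.08, and -1.89, so that their E16.5 median lay nearer to 0 than over all cells. The MGE lineage factors had 7 of 17 higher, 1 of them 2-fold, 2 lower, and medians of 0.22, 0.15, and 0.51. In the plot of ratios at all depths against matched depth, these 23 genes stayed on their side of 0.

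**Figure D5:**
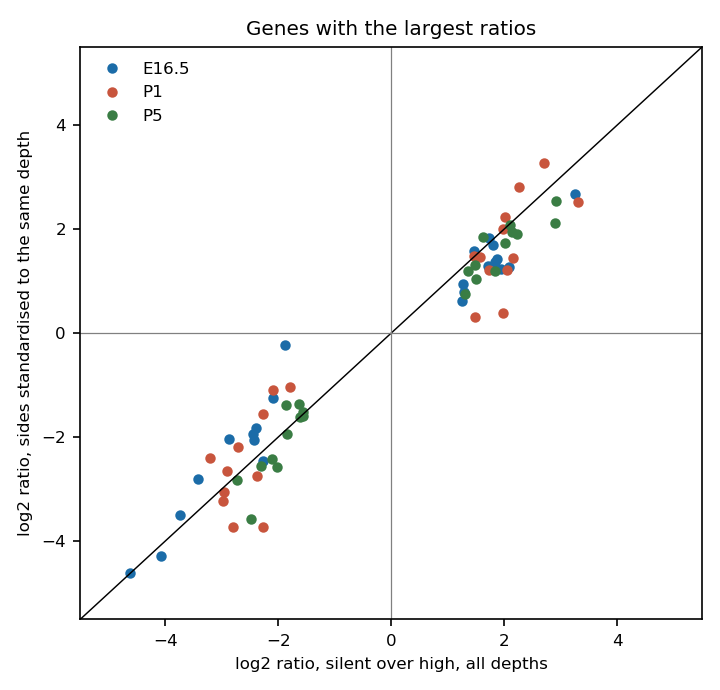
Log2 ratio of CPM, silent over high, over all cells (horizontal axis) against the same ratio with both sides standardised to the same depth (vertical axis) for the 12 genes highest and 11 of the genes lowest in Sst-silent cells, 1 point per gene and library; the diagonal marks equal ratios. All points stay on their side of 0, the nearest being Cort at E16.5 (-1.87 against -0.23) and Sox4 at P1 (1.49 against 0.31).

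A few genes had opposite directions at different stages. Etv1, an ETS factor, was lower in Sst-silent cells at E16.5, with 32.4 and 106 CPM, and higher at P1, with 65.7 and 31.3 CPM, and at P5, with 95.5 and 10.6 CPM. Thsd7a, an adhesion protein gene, followed the same course with ratios of -0.81, 1.89, and 3.12. Npas1, a helix-loop-helix factor of interneuron precursors, took the other course, with 147 and 59.9 CPM at E16.5, 45.2 and 148 CPM at P1, and 64.2 and 293 CPM at P5. The ratio of Npas1 at P1, -1.69 over all cells, was -0.07 at matched depth and 0.42 between cells of 4000 to 8000 UMIs. Genes past 2-fold in opposite directions in at least a pair of libraries, with both intervals off 0, were 8 of the 482 genes named or in a list and 39 of all 11164, and these differences between stages were not tested.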

How the data were processed

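Raw UMI counts per gene and cell were taken as deposited, 1 matrix a library; the authors had made them with Cell Ranger (3.0.2 for P1, otherwise 3.1.0) on GRCm38. The 3 libraries held 25638779, 15654107, and 13429055 UMIs in 4478, 4440, and 3406 cells. Cells were selected by the stated rule, and their counts were summed per side and library, divided by the side's total, and compared as log2((CPM + 1)/(CPM + 1)) for genes with at least 10 UMIs over both sides of each library. Levels carry exact Poisson intervals, and ratio intervals are conditional exact ones. No doublet caller was run; leaving out the 5% of cells with the most UMIs was an alternative. Named genes were the 12 with the largest and the 12 with the smallest ratio in the library nearest to 0 among genes of at least 20 CPM, up to 4 of each list with 1 direction and up to 2 without, and all defining markers, of which a few genes are not reported here; Maf, Furin, Pnoc, Ptpru, Dpp10, Kirrel3, and the other members counted by name were named after their values had been seen. Members, rule, and 21 gene lists were chosen with earlier results of these data known, 5 lists by the study itself; 2 listed symbols matched no gene. The excitatory cells and the balance of the lists were defined after the data had been seen. Alternatives covered the pseudocount, filter, scaling (edgeR 4.0.16, DESeq2 1.42.0), depth, thresholds, and each library left out. Promoters came from RefSeq (GRCm38.p6) and coordinates from GENCODE M21 (GRCm38). The scripts, in Python 3.11.15 with numpy 2.4.6 and scipy 1.17.1, were tested on simulated data.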

Additional observations from a re-analysis of the deposited data

Results flagged for a closer look

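Named or listed genes with ratios past 2-fold in opposite directions at different stages, with both counting intervals off 0, are given here as log2 ratios, silent over high. There was 1 library per stage, and none of these differences was tested. In the order E16.5, P1, P5, Etv1 stood at -1.68, 1.05, and 3.05, and Npas1 at 1.28, -1.69, and -2.17. At matched depth Etv1 stood at -0.64, 1.81, and 3.25, and Npas1 at 1.05, -0.07, and -1.997. Nrgn, which encodes the calmodulin-binding protein neurogranin, stood at -1.57 at E16.5 (5 UMIs in silent cells), -1.11 at P1, and 1.74 at P5, and at -0.05, 1.03, and 2.32 at matched depth, so that its direction turned at P1 and its E16.5 value was near 0. Gabra4, a GABA receptor subunit, stood at -1.84 (7 UMIs in silent cells), -1.13, and 1.62, and at -1.29, -1.08, and 1.15 at matched depth. The adhesion molecule gene Alcam was at -2.24 at E16.5 (12.5 CPM in silent and 63.0 CPM in high cells) and 1.08 at P5 (338 and 160 CPM), and at matched depth at -1.50 and 0.95. Tox, which encodes a chromatin factor, was at -2.03 at E16.5 and 1.28 at P5, and at matched depth at -2.48 and 0.90. Nkain3 was at -1.39 and 1.00 and Dpy19l1 at -1.83 and 1.32 at those stages. Over all cells, these 8 genes but Npas1 were lower in silent cells at E16.5 and higher at P5.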

How the results depend on the processing

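The count of 2710 higher genes became 1536 with cells of 4000 to 8000 UMIs only and 1806 with sides set on thinned cells, and the 2388 lower genes became 1532 with mitochondrial shares under 5%. The 48 genes 2-fold higher became 24 with 5 CPM added, 29 with at least 50 UMIs per gene, 30 at matched depth, 18 with 4000 to 8000 UMIs, 21 with thinned cells, 4 against cells of 1 to 9 Sst UMIs, and 24 with mitochondrial shares under 5%. The 82 genes 2-fold lower became 36, 54, 33 (4000 to 8000 UMIs), 35 (thinned), 20, and 42 under the same settings, without a move past 1.5 times at matched depth. Filters on genes and cells left fewer genes to compare, but the shares of compared genes at least 2-fold higher were lower too. They were 0.359% of 8068 with at least 50 UMIs per gene and 0.192% of 9358 with 4000 to 8000 UMIs. With mitochondrial shares under 5% it was 0.286% of 8392, against 0.430% of 11164 in the main setting. In the same order, the shares at least 2-fold lower were 0.669%, 0.353%, and 0.500%, against 0.735%. The causes were not tested. Leaving out 1 library each gave 3668 to 4052 genes higher, 3181 to 3808 lower, 57 to 130 at least 2-fold higher (130 without E16.5, 79 without P5), and 101 to 354 at least 2-fold lower (231 without E16.5, 354 without P5); fewer libraries make the condition easier to meet. With cells thinned to 2000 UMIs 34.6% (E16.5), 39.3% (P1), and 40.8% (P5) of eligible cells were silent, and the high share (at least 5 Sst UMIs) 33.2%, 21.5%, and 17.8%. With mitochondrial shares under 5%, the silent share was 29.5% at P1 and 18.8% at P5 and the high share 30.4% at P5, and with at least 2 Lhx6 UMIs the high share was 43.3% at E16.5 and the silent share 23.5% at P5. Of 2654 recomputed mean ratios of 109 named genes, 2458 moved by less than the spread between the libraries, and 71, of 23 genes, changed sign. Of these genes Dlx2 had 1 direction in all 3 libraries and turned to -0.0627 with cells of 4000 to 8000 UMIs. Of 525 recomputed list medians, 465 moved by less than that spread, and 20, of 8 lists, changed sign, the CGE list at matched depth among them. The silent and high sides are paired within each library, and every ratio is taken within that pairing. No paired test was made, since an exact two-sided test of 3 pairs cannot go below p = 0.25. Shallow cells, of a median of 3588 UMIs in the P1 silent side, limit what 0 Sst UMIs can show.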
